A study of Homo sapiens with 4 samples.

Results

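In all, 10 genes of mitochondrial shape and turnover were followed in BEAS-2B cells, an established line of immortalized human bronchial epithelial cells. They were chosen by name, not by their values, and make up 10 of the 24424 gene symbols in the count files. DNM1L, FIS1 and MFF act in mitochondrial fission, MFN1, MFN2 and OPA1 in fusion, and PINK1, SQSTM1 and OPTN in mitophagy, while PPARGC1A drives the formation of new mitochondria. RNA was sequenced from 1 library per condition. Control cells received no treatment. LPS cells received lipopolysaccharide, the endotoxin of gram-negative bacteria, for 2 hr. The WT PDZ cells were first given the wild-type PDZ peptide, made after a PDZ domain of the tight junction protein ZO-1, for 24 hr and then LPS for 2 hr. The mut PDZ cells were given a mutant form of that peptide on the same schedule. The libraries are called Control, LPS, WT PDZ and mut PDZ here, and A/B stands for library A set against library B, so that WT PDZ/LPS compares cells that all received LPS. All cells were labelled wild type in genotype, and no library received a peptide without LPS. The study followed mitochondrial shape under LPS in a macrophage line, so the RNA here comes from another cell type than those images.

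Mitochondria form a network that constantly divides and joins. In fission, the cytosolic GTPase DRP1, which DNM1L encodes, is recruited to the outer membrane by receptors such as MFF and FIS1 and pinches the organelle apart. Fusion of the outer membranes needs the mitofusins MFN1 and MFN2, and fusion of the inner membranes needs OPA1. In mitophagy, the kinase PINK1 builds up on depolarized mitochondria and marks them with phospho-ubiquitin together with the ubiquitin ligase Parkin, and receptors such as OPTN and SQSTM1 (p62) tie the marked organelles to the autophagic membrane. DRP1 is largely governed by phosphorylation and PINK1 by protein stability, neither of which read counts measure.

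The total depth ran from 19682929 to 25155647 counts per library, with mut PDZ the shallowest. Counts were divided by median-of-ratios size factors and are given as normalized counts. A log2 fold change is the difference of log2(normalized count + 1) between 2 libraries, with a 95% exact binomial (Clopper-Pearson) interval. The interval covers counting error only and compares 2 libraries, not conditions, and with 1 library per condition no p-value can be given. As a check of the labels, the LPS-induced genes NFKBIA, TNFAIP3, ICAM1, CXCL8 and CCL20 were each more than 2-fold higher in each of the 3 LPS-treated libraries than in Control. All 7 epithelial markers had at least 16 normalized counts in every library, with summed levels of 68058 to 94331. Of the 7 leukocyte markers only CD14 reached that level, PTPRC and CD163 had 0 counts in every library, and the summed levels ran from 369 to 533. Of the 7 fibroblast markers COL1A1, PDGFRB and THY1 reached it, COL3A1 and LUM had 0 counts, and the summed levels ran from 1910 to 2111. Most of the epithelial sum came from KRT7, KRT8 and KRT18. EPCAM, at 37 to 51 counts, and KRT19, at 87 to 216, had fewer counts than CD14 at 362 to 507 and THY1 at 1365 to 1726. The mut PDZ library stood apart by transcript length. Over 12127 genes, which share the libraries and are no replicates, Spearman's rho of length with log2 fold change came to -0.605 for mut PDZ/LPS and 0.074 for WT PDZ/LPS. Where stated, values of that library are given also after a length and GC correction. It subtracts the trends of all genes over the length and GC content of their transcripts. In these bulk libraries, fewer cells with a transcript and less of it per cell cannot be told apart.

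All 10 genes were well above the expression rule of 16 normalized counts, and most differences were small. In LPS/Control, 0 of the 10 genes were 2-fold apart, where 4.87% of all genes were, and 0 were 1.5-fold apart, where 11.5% of all genes were. The largest differences were a higher level of SQSTM1 and OPTN and a lower level of PPARGC1A. In WT PDZ/Control 0 of 10 were 2-fold apart (4.7% of all genes), and in mut PDZ/Control PPARGC1A alone was (8.09% of all genes, and 2.96% for lower genes). None of the 10 was 2-fold apart in WT PDZ/LPS (1.37% of all genes, and 4.31% at 1.5-fold, which none passed either), mut PDZ/LPS (3.95%) or mut PDZ/WT PDZ (4.26%). For 10 genes, counts of 0 or 1 are near these shares.

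**Figure D1:**
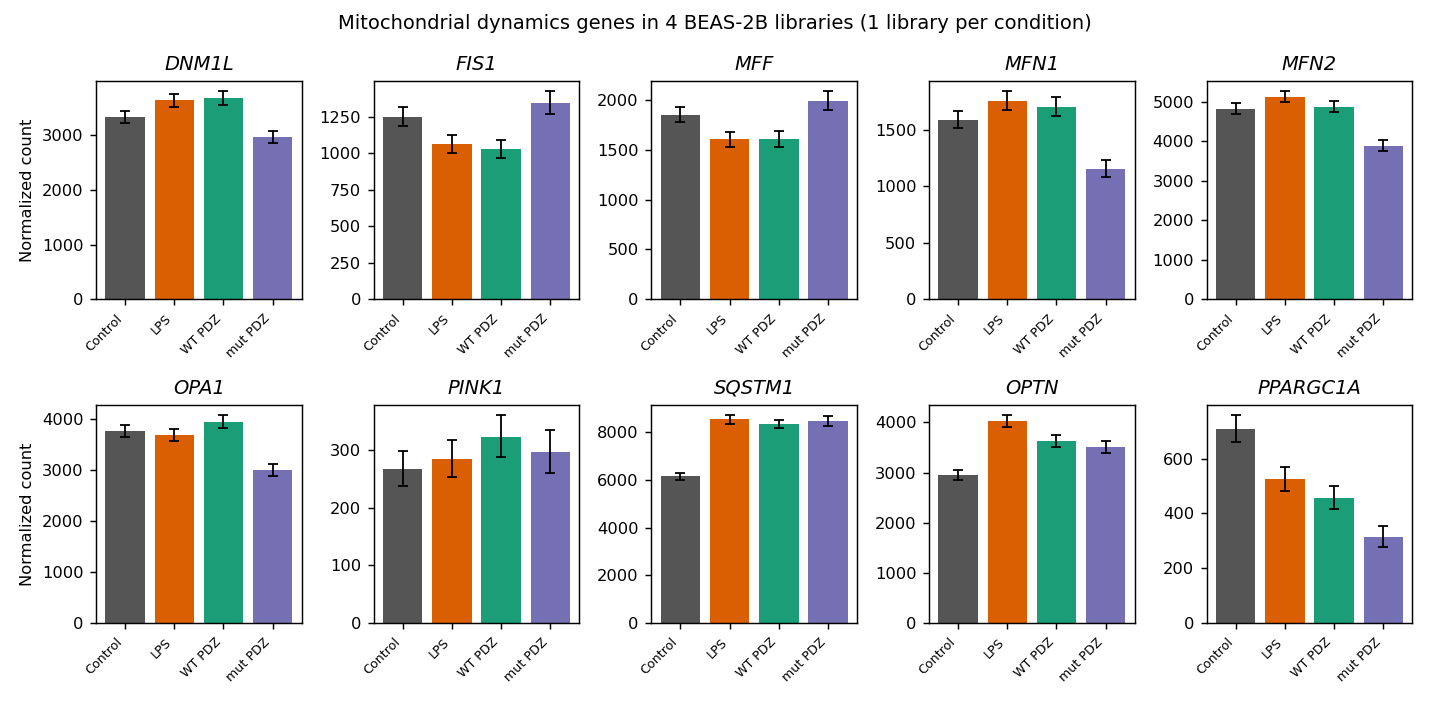
Normalized counts of the 10 genes (y axis, linear, from 0) in the 4 libraries (x axis), with bars for the single library of each condition and error bars for the 95% counting interval. SQSTM1 and OPTN were lowest in Control, PPARGC1A was highest in Control and lowest in mut PDZ, and the fission receptors FIS1 and MFF were highest in mut PDZ, where DNM1L and the 3 fusion genes were lowest.

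DNM1L, the fission GTPase, had 3323 normalized counts in Control, 3628 in LPS, 3671 with WT PDZ and 2959 with mut PDZ. LPS and WT PDZ lay close together above Control, and mut PDZ was lowest. The log2 fold change was 0.13 (0.062 to 0.19) in LPS/Control and 0.14 (0.078 to 0.21) in WT PDZ/Control. With total-count scaling, which put the median over all genes at -0.13, the value of DNM1L in LPS/Control was -0.0045, so its direction rests on the scaling. In WT PDZ/LPS it was 0.017 (-0.049 to 0.082), an interval that spans 0. In mut PDZ/LPS it was -0.29 (-0.37 to -0.22), and -0.048 after the length and GC correction. The same correction turned -0.17 into 0.064 in mut PDZ/Control. DNM1L had many genes of like pattern: 386 of 10859 genes whose mean reached 100 normalized counts lay within 0.1 of it in each of the 3 log2 fold changes against Control, and 755 of 10487 did after the correction.

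FIS1, an outer membrane protein linked to DRP1 recruitment, had 1247 normalized counts in Control, 1060 in LPS, 1029 with WT PDZ and 1343 with mut PDZ. MFF, the main DRP1 receptor in many cells, had 1849, 1603, 1602 and 1986 normalized counts in the same order. Both were lowest in LPS and WT PDZ, which were nearly level, and highest in mut PDZ. In LPS/Control the log2 fold change was -0.23 (-0.35 to -0.12) for FIS1 and -0.21 (-0.30 to -0.11) for MFF, and in WT PDZ/Control it was -0.28 (-0.39 to -0.16) and -0.21 (-0.30 to -0.11). These 4 values stayed below 0 under every scaling and after the length and GC correction. In WT PDZ/LPS the intervals of both genes spanned 0, with values of -0.043 for FIS1 and -0.0013 for MFF. Against LPS, the mut PDZ library had FIS1 at 0.34 (0.22 to 0.46) and MFF at 0.31 (0.21 to 0.41). The 2 receptors parted after the correction, to -0.18 for FIS1, which has the shortest transcript of the 10 genes, and 0.24 for MFF. In mut PDZ/Control FIS1 likewise moved from 0.11 to -0.36 with the correction, so its direction turned, and that of MFF did not.

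MFN1, an outer membrane mitofusin, had 1589 normalized counts in Control, 1758 in LPS, 1704 with WT PDZ and 1156 with mut PDZ. Its paralogue MFN2, which also tethers mitochondria to the endoplasmic reticulum, had 4823, 5118, 4869 and 3887 normalized counts in the same order. Control, LPS and WT PDZ were close for both mitofusins, and mut PDZ was apart below them. In LPS/Control the log2 fold change was 0.15 (0.052 to 0.24) for MFN1 and 0.086 (0.031 to 0.14) for MFN2. Total-count scaling brought these to 0.014 and -0.046, so the direction of MFN2 turned. With mut PDZ against LPS, MFN1 stood at -0.60 (-0.72 to -0.49) and MFN2 at -0.40 (-0.46 to -0.33), and after the correction at -0.30 and -0.20. MFN1 and PPARGC1A were the 2 genes of the 10 that were at least 1.5-fold lower in mut PDZ/LPS, against 9.8% of all genes that were lower by this rule. After the correction 0 of the 10 were, against 3.22%.

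OPA1, the dynamin-like GTPase of the inner membrane, had 3766 normalized counts in Control, 3681 in LPS, 3953 with WT PDZ and 3008 with mut PDZ. WT PDZ was the highest and mut PDZ the lowest in normalized counts. In WT PDZ/Control the value was 0.070, which total-count scaling turned to -0.062 and the length and GC correction brought to 0.0054, so the place of WT PDZ over Control rests on the scaling. The log2 fold change was -0.033 (-0.096 to 0.030) in LPS/Control, an interval that spans 0. It was 0.10 (0.039 to 0.17) in WT PDZ/LPS and -0.29 (-0.36 to -0.22) in mut PDZ/LPS. After the length and GC correction these became 0.067 and 0.080, so the opposite directions were not present after it. OPA1 has the longest transcript of the 10 genes.

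**Figure D2:**
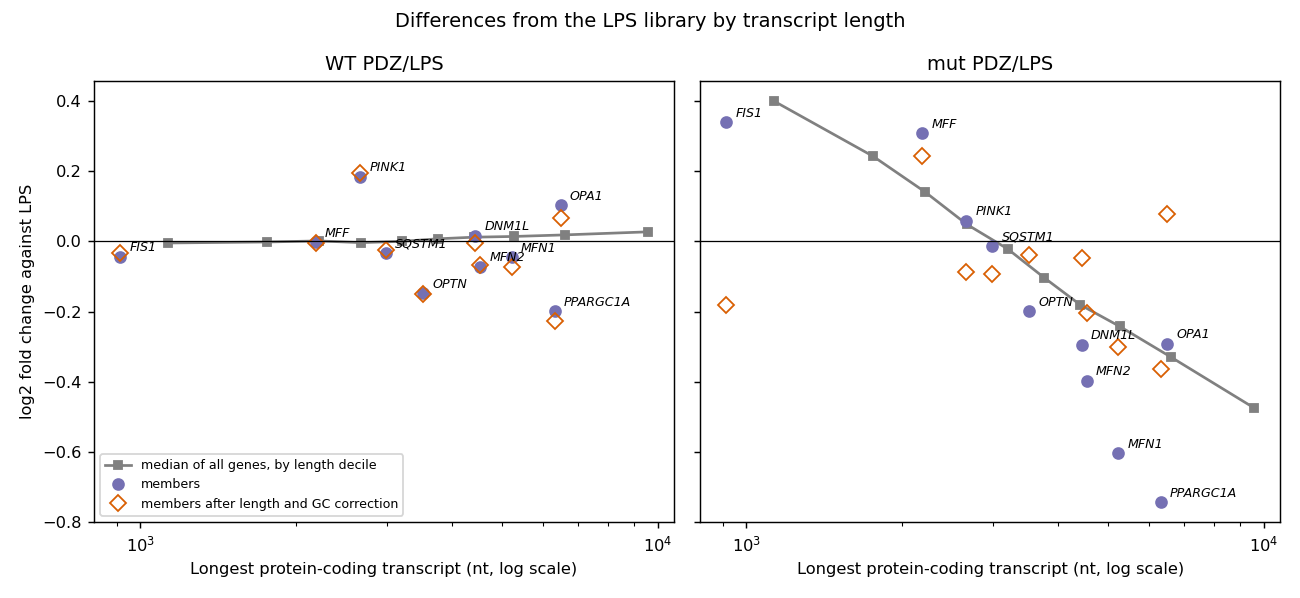
log2 fold change against LPS (y axis) by length of the longest protein-coding transcript (x axis, nt, log scale) for WT PDZ and mut PDZ, with filled circles for the 10 genes, open diamonds for their values after the length and GC correction and grey squares for the median of all genes in each length decile. The medians of all genes were near 0 at every length in WT PDZ/LPS and ran from 0.40 to -0.47 in mut PDZ/LPS, where the 10 genes followed the same slope before the correction.

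In the mut PDZ comparisons the log2 fold changes of the 10 genes fell with transcript length before the length and GC correction. The longest protein-coding transcripts measure 915 nt for FIS1, 2186 nt for MFF and 4439 nt for DNM1L among the fission genes. Those of the fusion genes measure 4539 nt for MFN2, 5224 nt for MFN1 and 6493 nt for OPA1, so all 3 are longer than those of the fission genes. Across the 10 genes, which share the same libraries, Spearman's rho of length with log2 fold change came to -0.745 for mut PDZ/Control, -0.879 for mut PDZ/LPS and -0.915 for mut PDZ/WT PDZ. After the correction it was -0.333, -0.273 and 0.042. For WT PDZ/LPS it was -0.236 before and -0.297 after.

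Ratios within a library need no scaling between libraries. The summed counts of MFN1, MFN2 and OPA1 over those of DNM1L, FIS1 and MFF gave a ratio of 1.59 (1.54 to 1.63) in Control, 1.68 (1.63 to 1.73) in LPS, 1.67 (1.62 to 1.72) with WT PDZ and 1.28 (1.24 to 1.33) with mut PDZ. LPS and WT PDZ did not part, and the interval of mut PDZ was below the other 3. The fusion genes are the longer ones, and the part of length in this ratio was not tested. The corrected values in mut PDZ/LPS were -0.30, -0.20 and 0.080 for MFN1, MFN2 and OPA1, and -0.048, -0.18 and 0.24 for DNM1L, FIS1 and MFF, so the ranges of both roles overlapped. Within the fission genes, DNM1L over FIS1 was 2.66 (2.51 to 2.83) in Control, 3.42 (3.20 to 3.66) in LPS, 3.57 (3.33 to 3.83) with WT PDZ and 2.20 (2.05 to 2.36) with mut PDZ. The libraries with LPS alone and with WT PDZ were above Control and did not part from each other, and mut PDZ was below Control. Between the corrected log2 fold changes against Control, DNM1L minus FIS1 came to 0.29 in LPS, 0.32 with WT PDZ and 0.43 with mut PDZ, so the mut PDZ library was below Control only without the length and GC correction. MFF over FIS1 was between 1.48 and 1.56 in the 4 libraries, with overlapping intervals, but after the correction MFF minus FIS1 on the log2 scale was 0.45 in mut PDZ/Control and 0.42 in mut PDZ/LPS. MFN2 over MFN1 was 3.04 in Control, 2.91 in LPS, 2.86 with WT PDZ and 3.36 with mut PDZ. The interval of mut PDZ overlapped that of Control but not those of LPS and WT PDZ. On the log2 scale MFN2 minus MFN1 in mut PDZ/LPS was 0.21 before the correction and 0.099 after it. In mut PDZ/Control it was 0.15 before and 0.041 after.

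**Figure D3:**
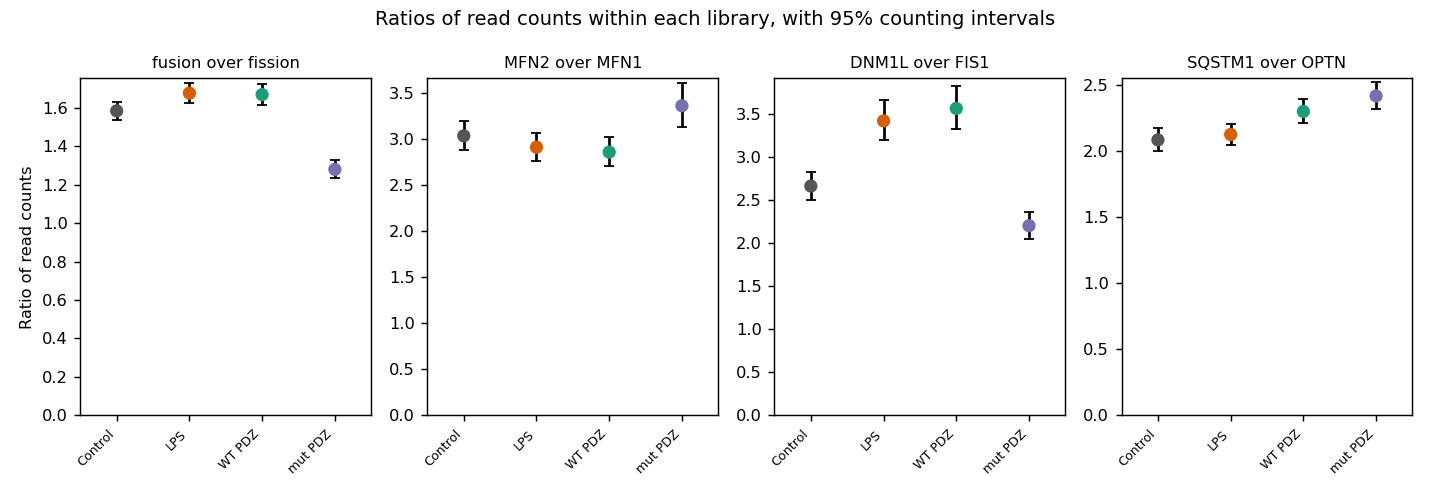
Ratio of read counts within each library (y axis, from 0) for the summed fusion genes over the summed fission genes, MFN2 over MFN1, DNM1L over FIS1 and SQSTM1 over OPTN in the 4 libraries (x axis), with 95% counting intervals. Fusion over fission was 1.28 with mut PDZ and 1.59 to 1.68 elsewhere, and DNM1L over FIS1 was highest in LPS and WT PDZ, in counts without the length and GC correction.

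PINK1, the kinase that starts mitophagy, had 267 normalized counts in Control, 284 in LPS, 323 with WT PDZ and 296 with mut PDZ. The 4 levels were low and close together, with WT PDZ the highest. The log2 fold change was 0.088 (-0.15 to 0.32) in LPS/Control, which total-count scaling turned to -0.043, 0.27 (0.044 to 0.50) in WT PDZ/Control and 0.19 (-0.046 to 0.42) in WT PDZ/LPS. These values are uncertain. PINK1 shares 1907 exonic bases with the antisense gene PINK1-AS on the opposite strand, which held 750 to 930 counts against 252 to 320 for PINK1. The library kit marks strand, but whether the counting used it is not given in the sources used here.

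SQSTM1, the receptor p62 that also serves selective autophagy of protein aggregates, had 6162 normalized counts in Control, 8547 in LPS, 8349 with WT PDZ and 8473 with mut PDZ. Control was the lowest, and the 3 libraries with LPS were nearly level. The log2 fold change against Control was 0.47 (0.43 to 0.52) in LPS, 0.44 (0.39 to 0.48) with WT PDZ and 0.46 (0.41 to 0.51) with mut PDZ, and these comparisons share the Control library. In LPS/Control it was 0.34 with total-count scaling, the lowest of the 3 other scalings. The length and GC correction gave 0.39 in mut PDZ/Control. In WT PDZ/LPS it was -0.034 (-0.077 to 0.0093) and in mut PDZ/LPS -0.013 (-0.057 to 0.032), so both intervals spanned 0. For mut PDZ/LPS the correction gave -0.092 and upper-quartile scaling 0.052, so the direction there rests on the processing. Fewer genes had a pattern like that of SQSTM1: 32 of 10859 lay within 0.1 in each of the 3 log2 fold changes against Control. In LPS/Control 14.5% of all genes had a larger absolute log2 fold change than SQSTM1, and 55.7% than DNM1L. Genes are sparser that far from 0, so the lower count does not by itself make the pattern unusual. The nearest to SQSTM1 were IL4R, GABPB1 and PPRC1. After the correction 45 of 10487 lay within 0.1, and none of these genes was among the 3 nearest. SQSTM1 shares 105 exonic bases with MGAT4B on the opposite strand, which had 4341 to 5050 counts.

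OPTN, the ubiquitin-binding receptor optineurin, had 2956 normalized counts in Control, 4021 in LPS, 3630 with WT PDZ and 3505 with mut PDZ. Control was again the lowest, but here LPS alone was above both peptide libraries. The log2 fold change against Control was 0.44 (0.38 to 0.51) in LPS, 0.30 (0.23 to 0.36) with WT PDZ and 0.25 (0.17 to 0.32) with mut PDZ. In mut PDZ/Control it was 0.40 after the length and GC correction. Against LPS it was -0.15 (-0.21 to -0.083) with WT PDZ, unchanged by the correction at -0.15. In mut PDZ/LPS it was -0.20 (-0.27 to -0.13), and -0.038 after the correction. SQSTM1 over OPTN was 2.08 (2.00 to 2.17) in Control, 2.13 (2.05 to 2.20) in LPS, 2.30 (2.21 to 2.39) with WT PDZ and 2.42 (2.32 to 2.52) with mut PDZ. Control and LPS overlapped, and both peptide libraries were above them. After the correction SQSTM1 minus OPTN on the log2 scale was 0.13 for WT PDZ/LPS. It came to -0.054 for mut PDZ/LPS and -0.011 for mut PDZ/Control, so mut PDZ was above neither library by the corrected values. OPTN shares 147 exonic bases with CCDC3 on the opposite strand, which had 45 to 86 counts.

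Since SQSTM1 and OPTN were the 2 genes higher in all 3 LPS-treated libraries by more than 0.2 on the log2 scale, their upstream sequences are shown as examples of what a promoter search found. RefSeq promoter windows of the GRCh38.p14 build, 250 bases before to 50 after each start, were held for 9 of the 10 genes, in 15 windows. They were searched on both strands for the kB consensus, the site that NF-kB binds, and for TGANNNNGC. The latter is a loose form of the antioxidant response element core, with the middle bases left free. The 250 bases before the start of OPTN on the plus strand (chr10:13099832-13100081) and of SQSTM1 on the plus strand (chr5:179820655-179820904, the third of its windows) follow, with the matches in capitals.
OPTN: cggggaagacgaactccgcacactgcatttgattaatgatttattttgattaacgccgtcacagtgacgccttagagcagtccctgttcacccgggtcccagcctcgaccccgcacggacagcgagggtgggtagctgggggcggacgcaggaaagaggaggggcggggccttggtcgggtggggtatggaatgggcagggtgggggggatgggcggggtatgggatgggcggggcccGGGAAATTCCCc
SQSTM1: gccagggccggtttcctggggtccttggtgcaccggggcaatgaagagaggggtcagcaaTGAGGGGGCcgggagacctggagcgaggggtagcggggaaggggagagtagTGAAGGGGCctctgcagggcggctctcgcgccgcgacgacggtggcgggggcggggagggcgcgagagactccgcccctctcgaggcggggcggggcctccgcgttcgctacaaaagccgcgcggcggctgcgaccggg

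In OPTN the capitals hold the kB match GGGAAATTCC at bases -12 to -3 and the overlapping match GGGAATTTCC on the opposite strand at -11 to -2. In the other window of OPTN the same matches lie at -93 to -84 and -92 to -83, so their distance depends on the start taken. OPTN was the 1 gene of the 9 with a kB match, where 7.09% of all 27305 gene symbols with a window have a match in at least 1 of their windows. In SQSTM1 the capitals are 2 matches to TGANNNNGC, at -190 to -182 and at -139 to -131, and its other windows held no match. Both lack the C after TGA, so neither fits the antioxidant response element core. That motif was found in 3 of the 9 genes, the others being MFF and PPARGC1A, and in 47.1% of the 27305 symbols, so it is common. A match is a description of the sequence and not a bound site.

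PPARGC1A, the coactivator PGC-1alpha, had 708 normalized counts in Control, 524 in LPS, 456 with WT PDZ and 313 with mut PDZ. Every LPS-treated library was below Control, and mut PDZ was the lowest. The log2 fold change was -0.43 (-0.59 to -0.28) in LPS/Control and -0.63 (-0.80 to -0.47) in WT PDZ/Control. In WT PDZ/Control it was the 1 gene of the 10 at least 1.5-fold lower, against 4.61% of all genes. It remained past 1.5-fold after the length and GC correction, at -0.69, where 3.35% of all genes were lower. In mut PDZ/Control it was -1.18 (-1.39 to -0.98), and -0.83 after the length and GC correction, which left it under 2-fold, where 1.43% of all genes were lower, but past 1.5-fold, where 5.93% were. In WT PDZ/LPS it was -0.20 (-0.38 to -0.017). In mut PDZ/LPS it was -0.74 (-0.96 to -0.53), and -0.36 after the correction. The direction of PPARGC1A against Control was the same under all 3 other scalings, as were those of SQSTM1 and OPTN.

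**Figure D4:**
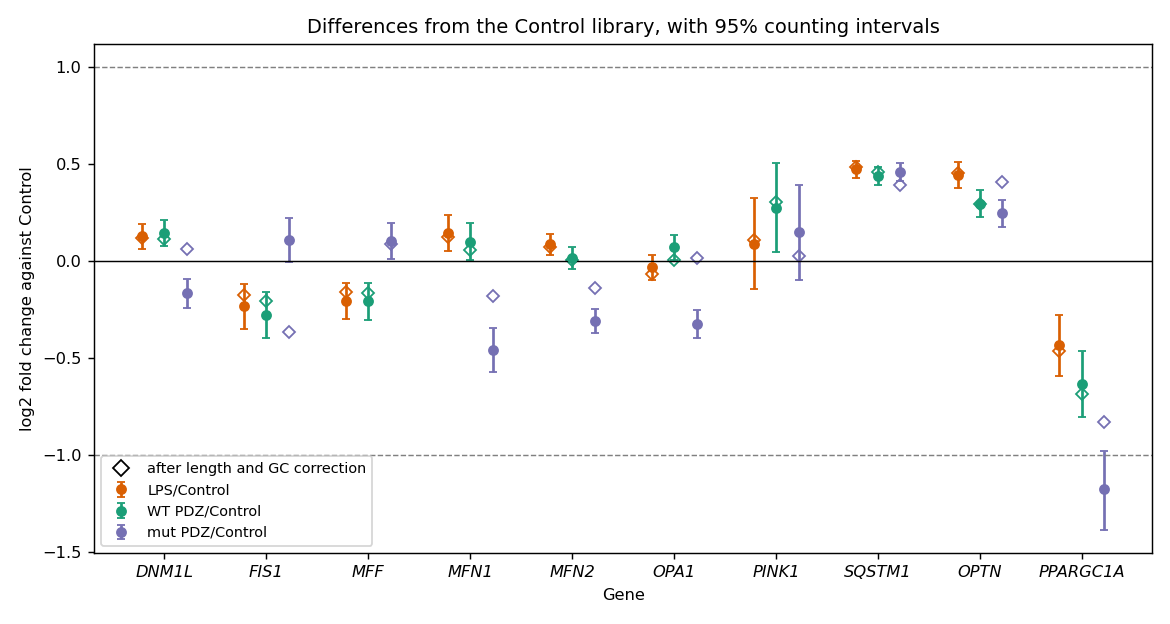
log2 fold change against Control (y axis) for the 10 genes (x axis) in LPS, WT PDZ and mut PDZ, with 95% counting intervals, open diamonds for values after the length and GC correction and dashed lines at 2-fold. SQSTM1 and OPTN were above 0 and PPARGC1A below 0 in all 3 comparisons, which share the Control library, and FIS1, DNM1L and OPA1 changed side with the correction in mut PDZ.

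Set side by side, the 10 genes as a group did not lie far from all genes in the comparisons with Control. The median of their log2 fold changes in LPS/Control was 0.087, beside -0.0010 for the 13072 genes whose mean reached 16 normalized counts, and 0.085 beside 0.010 in WT PDZ/Control. Total-count scaling turned these medians to -0.044 and -0.047, where all genes were at -0.13 and -0.12. In WT PDZ/LPS it was -0.038 beside 0.0075, and the 10 values ran from -0.20 to 0.19. In mut PDZ/LPS the median was -0.24 beside -0.023, and -0.090 after the length and GC correction.

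Per kilobase of the longest protein-coding transcript, SQSTM1 had the highest mean level of the 10 genes at 2640 normalized counts per kb. FIS1 at 1278, MFN2 at 1030 and OPTN at 1002 came next, with FIS1 second in every library and the order of MFN2 and OPTN differing between libraries. MFF at 805 and DNM1L at 765 also changed places, followed by OPA1 at 555 and MFN1 at 297. PINK1 at 110 and PPARGC1A at 79.2 were the lowest. PPARGC1A was above PINK1 in Control, at 112 against 100.4 normalized counts per kb, and below it in the other libraries. The expressed isoforms were not measured, so these levels depend on the transcript taken.

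Parkin mRNA was barely detected. PARK2, its symbol in the files, had 6 counts in Control, 1 in LPS, 2 with WT PDZ and 2 with mut PDZ, too few for a fold. In the list of PINK1, Parkin and mitophagy receptors, 25 of 26 genes passed the expression rule and 0 were 2-fold apart in any of the 6 comparisons. The share of all genes 2-fold apart ran from 1.37% to 8.09% over these comparisons. TBK1, the kinase that phosphorylates OPTN and SQSTM1, stood at 0.21 (0.11 to 0.32) in LPS/Control, and CALCOCO2, the receptor NDP52, at 0.059 (-0.0044 to 0.12). Both were picked after their values were seen.

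In the fission list 0 of 13 genes were 2-fold apart in any comparison (1.37% to 8.09% of all genes). MIEF2, an adaptor that recruits DRP1, was the 1 gene of the list at least 1.5-fold lower in LPS/Control, as were 4.77% of all genes, with 211 counts in Control and 122 in LPS, a log2 fold change of -0.67 (-1.01 to -0.35). It stood at -0.71 (-1.06 to -0.37) in WT PDZ/Control. Its paralogue MIEF1 stood at -0.043 (-0.12 to 0.035) in LPS/Control, and at -0.75 in mut PDZ/LPS, or -0.43 after the length and GC correction. In the list of fusion genes and OPA1 processing, 0 of 13 genes were 2-fold apart in any comparison (1.37% to 8.09% of all genes). YME1L1, a protease that cuts OPA1, stood at 0.053 (0.0041 to 0.10) in LPS/Control, and OMA1, the stress-activated protease, at -0.11 (-0.33 to 0.10). These 4 genes were also chosen after their values were seen.

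The biogenesis list held 19 genes, of which 18 passed the expression rule. In LPS/Control and WT PDZ/Control 0 were 2-fold apart (4.87% and 4.7% of all genes). In mut PDZ/Control PPARGC1A and PPARA, a fatty acid receptor that PGC-1alpha coactivates, were 2-fold lower, against 2.96% of all genes, and 0 were after the length and GC correction, against 1.43%. PPARA had 580 counts in Control, 477 in LPS, 371 with WT PDZ and 173 with mut PDZ. Its log2 fold change in mut PDZ/Control was -1.31 (-1.57 to -1.06), and -0.83 after the correction. Against LPS with mut PDZ it was -1.14 (-1.40 to -0.89), past 2-fold (3.95% of all genes in either direction), and -0.59 after the correction. The 3 coactivators of the PGC-1 family differed. PPARGC1B, chosen after its values were seen, had 305 normalized counts in Control, 564 in LPS, 600 with WT PDZ and 374 with mut PDZ. It was highest where LPS was given without a peptide or with WT PDZ, at 0.88 (0.69 to 1.08) in LPS/Control and 0.97 (0.78 to 1.17) in WT PDZ/Control. In mut PDZ/Control it was 0.29 (0.067 to 0.51), and 0.76 after the correction. PPRC1 stood at 0.49, 0.46 and 0.42 against Control in LPS, WT PDZ and mut PDZ, and at 0.59 in mut PDZ after the correction. PPARGC1B and PPRC1 were thus above Control in every LPS-treated library and PPARGC1A below it. TFAM, which packages and transcribes mitochondrial DNA and was also chosen after its values were seen, stood at 0.094 (0.030 to 0.16) in LPS/Control. The symbols searched for the 13 mRNAs that mitochondrial DNA encodes were not among the gene symbols counted, so these mRNAs were not analysed.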

How the data were processed

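RNA from 4 BEAS-2B cultures, 1 per condition, was sequenced as poly(A)-selected, directional paired-end libraries. After trimming, the authors aligned reads to hg19 using TopHat (per the submitters' processing notes), and they deposited unscaled counts of reads for each gene symbol. Their text names FPKM and geometric normalization, but the deposited values are whole-number counts with a different total in each library. The counting tool, the annotation and the use of strand are not given in the sources used here. Libraries were grouped by their labelled treatment.

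Here, size factors were computed with DESeq2 1.42.0 (R 4.3.3) and 1 normalized count was added before log2. No test could be fitted with 1 library per condition. A call needed a 2-fold difference and 16 or more normalized counts in 1 of the 2 libraries. Intervals are 95% exact binomial. They leave out everything but counting error, and PCR copies are not independent molecules and no molecular identifiers are described. The correction subtracted lowess trends (span 0.3) over the length and then over the GC content of each gene's longest coding transcript (GENCODE 29), known for 12127 of 13072 genes. Alternatives were a pseudocount of 5, scaling by TMM (edgeR 4.0.16), by upper quartile or by total count, other expression rules and folds of 1.5 and 3. The steps were tested on simulated counts with counting error and a length trend, but with no GC trend and no spread between cultures. Python 3.11.15, pandas 2.3.3, scipy 1.17.1 and statsmodels 0.14.6 were used.

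The genes named were the 10 members, listed pathway genes past the 2-fold rule (up to 5 per list) and the 3 genes nearest in pattern to SQSTM1. Those nearest to DNM1L are not reported here. Other genes are said to have been picked after their values were seen. The members and lists were chosen with earlier results of these data known.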

Additional observations from a re-analysis of the deposited data

Results flagged for a closer look

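OPA1, the inner membrane fusion GTPase, was flagged because it moved in opposite directions from LPS with the 2 peptides. Its log2 fold change was 0.10 (0.039 to 0.17) in WT PDZ/LPS and -0.29 (-0.36 to -0.22) in mut PDZ/LPS, with 3681 normalized counts in LPS. Both values share the LPS library, each condition has 1 library, and the difference was not tested. After the length and GC correction the values were 0.067 and 0.080.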

How the results depend on the processing

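Of 10 genes, the number 2-fold apart was 0 in every comparison except mut PDZ/Control, where it was 1 (PPARGC1A). It was 0 there with a fold threshold of 3 and 0 after the length and GC correction. With a fold threshold of 1.5 it was 1 in WT PDZ/Control (PPARGC1A) and 2 in mut PDZ/LPS (MFN1 and PPARGC1A). Of 60 single-gene values, 22 moved beyond their counting interval and 7 changed sign with total-count scaling, 8 and 3 with upper-quartile scaling, 0 and 1 with TMM, 0 and 0 with a pseudocount of 5, and 25 and 11 with the length and GC correction. Total-count scaling moved the median of all genes to -0.13 in LPS/Control, -0.12 in WT PDZ/Control and -0.12 in mut PDZ/Control. No paired analysis was possible because each condition had 1 library. Leaving out a replicate was not possible for the same reason, and the spread between cultures is unknown.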

Other observations

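The subunits of the cristae-organizing MICOS complex shape the inner membrane folds. In the list of these subunits and their outer membrane partner SAMM50, 0 of 8 genes were 2-fold apart in any of the comparisons with Control or LPS. Over these comparisons 1.37% to 8.09% of all genes were. In mut PDZ/LPS C19orf70 stood at 0.77, or 0.057 after the length and GC correction, and MINOS1 at 0.47, or 0.64 after it. Among the enzymes that modify DRP1, 18 of 19 genes passed the expression rule. Of these, 0 were 2-fold apart in these comparisons (1.37% to 8.09% of all genes). CDK1, which phosphorylates DRP1 in mitosis, stood at 0.16 (0.10 to 0.22) in LPS/Control, and AKAP1, the mitochondrial anchor of protein kinase A, at -0.26 (-0.33 to -0.19). In mut PDZ/LPS GSK3B stood at -0.82, or -0.36 after the correction, and ROCK1 at -0.59, or -0.060. They were the 2 genes of this list at least 1.5-fold lower there, as were 9.8% of all genes. MUL1, a ubiquitin and SUMO ligase of the outer mitochondrial membrane, stood at -0.48 in mut PDZ/LPS and -0.63 after the correction. By the corrected values it was the 1 gene of this list at least 1.5-fold lower there, as were 3.22% of all genes. Its corrected values were -0.66 in mut PDZ/Control, where 5.93% of all genes were lower by that rule, and -0.72 in mut PDZ/WT PDZ.

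Of 31 genes of the ATG8 family and core autophagy, 29 passed the expression rule. Of these, 0 were 2-fold apart in these comparisons (1.37% to 8.09% of all genes). The median was 0.065 in LPS/Control and 0.022 in WT PDZ/Control. MAP1LC3B, which encodes the membrane-bound ATG8 protein LC3B that SQSTM1 and OPTN bind, had 618 normalized counts in Control, 748 in LPS, 734 with WT PDZ and 817 with mut PDZ. All 3 LPS-treated libraries were above Control, at 0.27 (0.13 to 0.42) in LPS, 0.25 (0.097 to 0.40) with WT PDZ and 0.40 (0.25 to 0.56) with mut PDZ. These values were taken before the length and GC correction. The genes named here were chosen after their values were seen.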
